A study of Homo sapiens with 12 samples.

Results

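Caspases are proteases that cut their substrates after aspartate and carry out apoptosis, or drive inflammation. Initiator caspases are activated on platforms: CASP8 and CASP10 at death receptors, CASP9 on the apoptosome that APAF1 builds once cytochrome c leaves mitochondria, and CASP2 on the PIDDosome. Executioner caspases, of which CASP6 is described here, then cut the cell's structural proteins, and CASP1 and CASP4 belong to the inflammatory branch. Several of their transcripts are alternatively spliced into forms that lack a complete protease, which is why both level and splicing of these genes are described here.

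The set comprised 8 genes: CASP1, CASP2, CASP4, CASP6, CASP8, CASP9, CASP10 and APAF1. They were found by their symbols among the 26334 genes of the deposited count files, and all 8 were among the 15352 genes with enough reads to be tested. Their splicing events were those listed under the same symbols in the deposited splicing tables.

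RNA was sequenced from A549 cells, a human lung adenocarcinoma line, transduced with lentiviral shControl, a control shRNA, or shRNF113A, which targets RNF113A, and selected with puromycin at 1 µg/ml for 4 days. RNF113A is a RING finger E3 ligase and a spliceosome subunit. Cells of each kind were left untreated or received Cisplatin, a drug that crosslinks DNA, for which the labels give 25 µg/ml and 20 h and the study's legends for other experiments 25 µM. The 4 groups (control, Cisplatin-treated control, RNF113A-depleted, and Cisplatin-treated RNF113A-depleted cells) held 3 libraries each, 12 in all. The study calls the 3 libraries of a group biological replicates. Whether each came from a culture of its own is not given in the sources used here, and the p-values measure the spread between these libraries.

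The libraries held 33859097 to 56071514 read pairs each. Replicate 2 of both control groups stood apart from its fellow replicates: the chi-square of its gene counts per degree of freedom was 63.8 to 96.8 against them, and 4.06 to 18.1 in all other pairs of the same group. RNF113A mRNA was 19.9 ± 0.397 CPM (counts scaled to a common library size; mean ± SD, n = 3) in control and 16.0 ± 0.772 CPM in depleted cells, 1.24-fold lower (edgeR quasi-likelihood test, adjusted p = 0.0247). In Cisplatin-treated cells it was 29.4 ± 1.95 and 26.7 ± 2.88 CPM, the libraries overlapped, and the difference did not pass (adjusted p = 0.233). Each effect of depletion below therefore rests on the labels and a small difference in the targeted mRNA; the RNF113A protein is not part of these files. All 6 epithelial markers were detected in every group, with a summed level of 8522 to 15000 CPM in control, 4615 to 6597 in Cisplatin-treated control, 14481 to 15916 in depleted and 6520 to 6843 in Cisplatin-treated depleted cells. Among them KRT19 was near the floor, at 0.674 to 5.32 CPM. In the same order of groups, the 4 markers of A549 character summed to 13523 to 15944, 8304 to 9843, 10351 to 11851 and 5262 to 5804 CPM. CDKN2A, which A549 cells have lost, had 0 reads, and immune markers summed to at most 4.94 CPM. The part of these shifts in the results below was not tested, and in bulk RNA a change in the number of cells cannot be told apart from a change in RNA per cell.

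Per kilobase of annotated exon, CASP2, CASP8 and CASP6 were the most abundant members in untreated control cells, with levels of 13.4, 11.99 and 10.2 CPM per kb, and the libraries of these 3 genes overlapped. APAF1 followed at 4.82, CASP9 at 3.44 and CASP4 at 3.04 CPM per kb. The libraries of CASP9 and CASP4 overlapped, while those of APAF1 lay above both. CASP10, at 1.06 CPM per kb, lay below all of these. CASP1, the protease that matures interleukin-1β, was at 0.0354 CPM per kb, with 4, 6 and 1 reads in the 3 control libraries.

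Alternatively spliced segments whose inclusion differed between groups, or whose inclusion makes a well-known isoform, are shown from the GRCh37 (hg19) assembly, on the strand of the gene, with the segment in capitals and 10 bases of flank in lower case. The first lies in CASP8 at chr2:202141692-202141827 (+), where a downstream 5′ splice site extends exon 7 of the canonical transcript by 136 nt. Of the segments shown, it is the one whose inclusion differed upon depletion.
CASP8 136-nt extension: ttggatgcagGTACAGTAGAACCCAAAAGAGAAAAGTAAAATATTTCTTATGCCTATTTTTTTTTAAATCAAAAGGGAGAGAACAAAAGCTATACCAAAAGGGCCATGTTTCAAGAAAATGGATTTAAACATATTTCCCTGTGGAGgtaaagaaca
Read in the frame of the canonical transcript, a stop codon began at base 27 of this segment, so that the reading frame held 276 codons in place of 479. That frame ends before the codon of the catalytic cysteine.

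The next is exon 18 of APAF1, of 129 nt, at chr12:99097149-99097277 (+), which encodes part of the WD40 repeats that sense cytochrome c. Its inclusion differed upon Cisplatin. It keeps the frame, with 1248 codons when included and 1205 when skipped.
APAF1 exon 18: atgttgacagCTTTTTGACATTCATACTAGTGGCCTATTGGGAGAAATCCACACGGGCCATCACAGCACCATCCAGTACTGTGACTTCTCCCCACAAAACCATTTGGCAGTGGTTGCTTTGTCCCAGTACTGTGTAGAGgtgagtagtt
A shorter APAF1 segment of 33 nt at chr12:99042561-99042593 (+) follows the exon that ends the CARD, the domain by which APAF1 binds CASP9, and is known from the common isoforms of the gene.
APAF1 33-nt segment: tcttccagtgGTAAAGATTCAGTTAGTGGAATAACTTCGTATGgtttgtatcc
The last is the 61-nt exon of CASP2 at chr7:142997473-142997533 (+), whose inclusion shifts the frame and makes the short isoform, here with 343 codons in place of 452.
CASP2 61-nt exon: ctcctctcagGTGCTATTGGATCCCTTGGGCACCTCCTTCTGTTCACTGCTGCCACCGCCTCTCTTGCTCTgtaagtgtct

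Cisplatin raised 6 of the 8 genes in the model with terms for drug and depletion: CASP8, CASP10, APAF1, CASP6, CASP1 and CASP4. Of all genes tested, 66.8% changed in that model (adjusted p under 0.05), 34.8% upward and 32.1% downward. CASP10, APAF1 and CASP1 rose at least 2-fold, against 10.3% of all genes. The median log2 fold change of the 8 genes was 0.78, against 0.03 over all genes. Depletion of RNF113A lowered CASP10, APAF1 and CASP6 and raised CASP4, each by less than 2-fold. Of all genes 47.5% changed, 23.5% upward and 24% downward, and 11% changed at least 2-fold. The median of the 8 genes was -0.30, against -0.00 over all genes. Without the 2 control libraries numbered 2, CASP9 also fell upon Cisplatin, which made 7 changed genes where 71.9% of all genes changed. CASP8 (lower) and CASP9 (higher) joined the list for depletion, which made 6 where 54.5% of all genes changed.

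**Figure D1:**
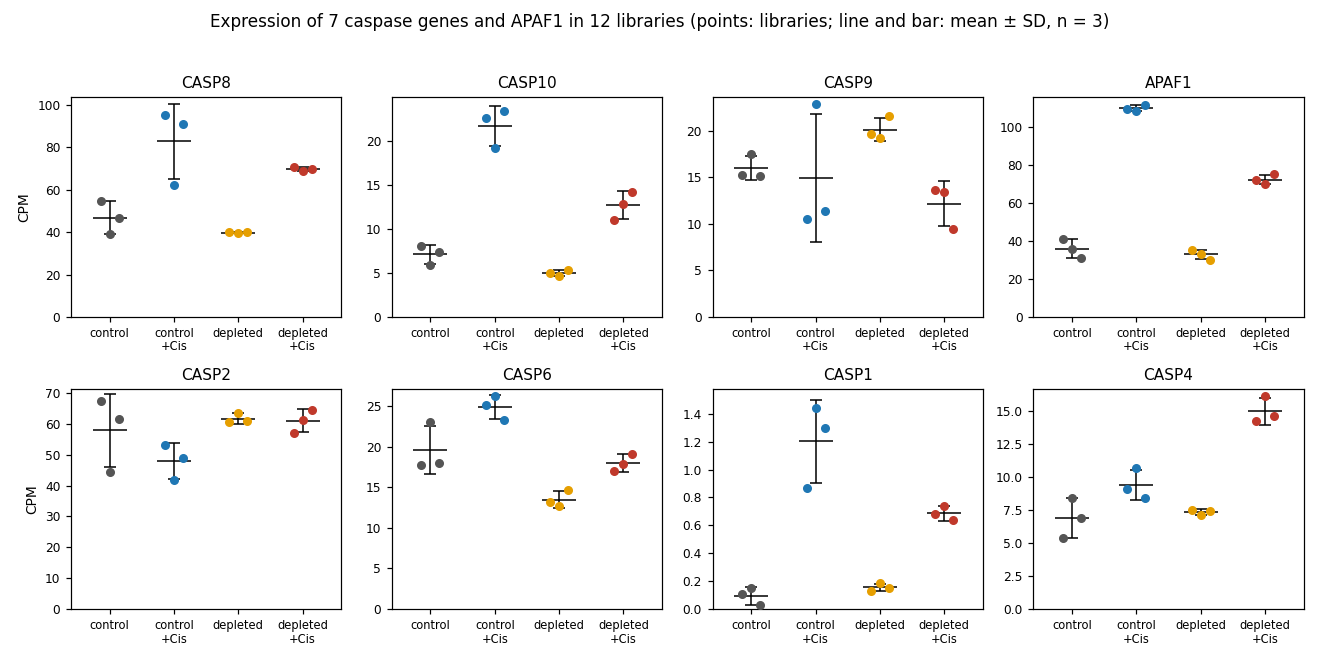
Level of each of the 8 genes in each of the 12 libraries, in CPM on linear axes that start at 0 and differ between panels; points are libraries, and lines and bars are group means and SD (n = 3). APAF1, CASP10, CASP1, CASP8, CASP6 and CASP4 were higher in every Cisplatin-treated library than in any untreated library of the same shRNA. CASP9 in replicate 2 of the Cisplatin-treated control cells lay above its fellow replicates.

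The death receptor initiators both rose with Cisplatin. CASP8 (chr2:202098166-202152434, +) was at 54.7, 38.95 and 46.5 CPM in control libraries and at 95.05, 62.3 and 90.7 CPM in Cisplatin-treated control libraries. In depleted cells it was at 39.8, 39.5 and 39.9 CPM, and at 70.7, 68.9 and 69.8 CPM after Cisplatin. All Cisplatin-treated libraries lay above all untreated ones. The rise was 1.77-fold in control cells (log2 fold change 0.82 ± 0.15 (SE), adjusted p = 0.000451) and 1.76-fold in depleted cells (0.81 ± 0.15, adjusted p = 0.000444). The difference between these rises was -0.01 on the log2 scale with a 95% interval of -0.42 to 0.39. Depletion had a log2 effect of -0.24 on CASP8 in the model with both terms (adjusted p = 0.0655). The effect passed with DESeq2 size factors (-0.26, adjusted p = 0.0457), with DESeq2 (-0.27, adjusted p = 0.0408) and with the replicate block (-0.22, adjusted p = 0.0444). Without the 2 control libraries numbered 2, which held the lowest CASP8 level of their groups, it was -0.38 (adjusted p = 7.41e-05).

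CASP10 (chr2:202047604-202094129, +), the neighbour of CASP8 and its close relative, had a larger response. It was at 8.04, 5.91 and 7.34 CPM in control libraries and at 22.6, 19.1 and 23.3 CPM after Cisplatin, a 3.05-fold rise (log2 fold change 1.61, adjusted p = 1.31e-06). Depleted cells had 4.98, 4.65 and 5.35 CPM, and 11.02, 12.8 and 14.2 CPM after Cisplatin, a 2.53-fold rise (adjusted p = 6.32e-06). Every depleted library lay below every control library of the same treatment. The depletion effect was -0.51 in untreated cells (adjusted p = 0.0203) and -0.78 in Cisplatin-treated cells (adjusted p = 0.000869). The call in untreated cells was lost in 4 of the 12 fits that left out a library, where the effect ranged from -0.63 to -0.41. The interaction, the difference between the Cisplatin effects in depleted and control cells, was -0.27 (95% interval -0.66 to 0.12, adjusted p = 0.472).

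APAF1 (chr12:99038919-99129204, +) rose in both kinds of cell, less so in depleted cells. Control libraries held 40.9, 35.9 and 31.2 CPM, and Cisplatin-treated control libraries 109.8, 108.5 and 111.7 CPM, a 3.06-fold rise (log2 fold change 1.61 ± 0.10, adjusted p = 5.29e-08). Depleted libraries held 35.2, 33.4 and 30.2 CPM, and 72.0, 70.0 and 75.1 CPM after Cisplatin, a 2.20-fold rise (1.13 ± 0.10, adjusted p = 8.6e-07). The untreated libraries of both kinds overlapped, whereas the Cisplatin-treated depleted libraries all lay below the Cisplatin-treated control libraries. Depletion changed APAF1 by -0.13 in untreated cells (adjusted p = 0.346) and by -0.60 in Cisplatin-treated cells (adjusted p = 0.000397). The interaction was -0.48 ± 0.13 (95% interval -0.74 to -0.22) and just missed the threshold (adjusted p = 0.0639). It passed with DESeq2 (adjusted p = 0.0105) and without the 2 control libraries numbered 2 (-0.49, adjusted p = 0.0224).

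CASP9 (chr1:15817327-15853029, -), which APAF1 recruits, did not share the rise. It was at 15.3, 17.5 and 15.2 CPM in control libraries and at 10.5, 22.9 and 11.4 CPM in Cisplatin-treated control libraries, so that replicate 2 lay above all untreated libraries and the other two below them. Depleted libraries held 19.6, 19.2 and 21.5 CPM, and 13.7, 13.4 and 9.39 CPM after Cisplatin, with no overlap. CASP9 fell 1.65-fold upon Cisplatin in depleted cells (log2 fold change -0.72 ± 0.25, adjusted p = 0.0241). The call was lost with library size as the only scaling (-0.63, adjusted p = 0.057) and in 2 of the 12 fits that left out a library (-0.85 to -0.57, adjusted p up to 0.101). In control cells the change was -0.10 (95% interval -0.58 to 0.38, adjusted p = 0.754) with all libraries and -0.47 (adjusted p = 0.00873) without the 2 libraries numbered 2. The interaction was -0.63 ± 0.35 (adjusted p = 0.331). In the model with both terms Cisplatin changed CASP9 by -0.41 (adjusted p = 0.0728). That change passed with DESeq2 (-0.44, adjusted p = 0.0437) and with the replicate block (-0.44, adjusted p = 0.0384).

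CASP2 (chr7:142985308-143004789, +), the initiator of the PIDDosome, passed in no comparison of level with all 12 libraries, TMM scaling, filterByExpr and no replicate block. Its group means were 57.8 ± 11.9 CPM in control, 47.9 ± 5.80 in Cisplatin-treated control, 61.6 ± 1.70 in depleted and 60.9 ± 3.76 in Cisplatin-treated depleted cells. Control libraries overlapped with Cisplatin-treated ones in both kinds of cell. The change upon Cisplatin was -0.27 in control cells (95% interval -0.54 to -0.01, unadjusted p = 0.0657, adjusted p = 0.105) and -0.02 in depleted cells (95% interval -0.28 to 0.25, adjusted p = 0.925). The first of these passed when the 3 equally numbered libraries were compared as pairs (-0.26, adjusted p = 0.024) and when replicate 2 was left out of both groups (-0.34, adjusted p = 0.0019). In Cisplatin-treated cells the level was higher in depleted cells by 0.35 on the log2 scale, which just missed the threshold (adjusted p = 0.0547). That difference passed without the 2 control libraries numbered 2 (0.26, adjusted p = 0.00944), with the replicate block (0.36, adjusted p = 0.0345), with library size as the only scaling (0.36, adjusted p = 0.0239) and with at least 10 counts required in every library (0.36, adjusted p = 0.045).

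CASP6 (chr4:110609785-110624739, -), an executioner that cuts lamin A, rose modestly with Cisplatin and was lower in depleted cells in both conditions. Its libraries ran from 17.8 to 23.0 CPM in control, 23.3 to 26.2 CPM in Cisplatin-treated control, 12.7 to 14.6 CPM in depleted and 17.0 to 19.1 CPM in Cisplatin-treated depleted cells. None of these ranges overlapped between groups that differ by 1 factor. Cisplatin raised it by 0.35 in control (adjusted p = 0.0181) and by 0.42 in depleted cells (adjusted p = 0.00666). The rise in control cells lost its call in 2 of the 12 fits without a library (0.28 to 0.47, adjusted p up to 0.072). Depletion lowered it 1.45-fold in untreated (adjusted p = 0.00398) and 1.39-fold in Cisplatin-treated cells (adjusted p = 0.0051). The interaction was 0.07 with a 95% interval of -0.24 to 0.38.

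Of the inflammatory caspases, CASP1 (chr11:104896170-104972158, -) had the largest fold change of the set and the fewest reads. It had 4, 6 and 1 reads in control, 33, 60 and 61 in Cisplatin-treated control, 5, 7 and 5 in depleted and 21, 24 and 17 in Cisplatin-treated depleted libraries. Treated and untreated libraries did not overlap in either kind of cell. The summed count, scaled for depth, was 12.5-fold higher upon Cisplatin in control cells (95% exact counting interval 6.80 to 25.6) and 4.39-fold higher in depleted cells (2.53 to 8.01). These intervals cover counting error only. The fitted log2 fold changes were 3.59 ± 0.40 (adjusted p = 1.07e-05) and 2.11 ± 0.40 (adjusted p = 0.000575). The interaction was -1.48 ± 0.60 and did not pass (adjusted p = 0.174). In Cisplatin-treated cells all depleted libraries lay below all control libraries in CPM. That depletion effect was -0.81 on the log2 scale and just missed the threshold (adjusted p = 0.0562). It passed with DESeq2 size factors (-0.85, adjusted p = 0.046), unstranded counts (-0.83, adjusted p = 0.0466) and the replicate block (-0.80, adjusted p = 0.0471). In untreated cells the effect was 0.67, with overlap (adjusted p = 0.353). CARD16, a shorter copy of the start of CASP1 that lies within its span on the same strand, had at most 4 reads in a library, and exons that are near-identical between them make the count of CASP1 uncertain.

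CASP4 (chr11:104813593-104840163, -), which senses cytosolic lipopolysaccharide, was the member that passed as higher upon depletion in the model with both terms. It was at 5.39, 8.36 and 6.87 CPM in control, 9.10, 10.6 and 8.36 CPM in Cisplatin-treated control, 7.52, 7.11 and 7.41 CPM in depleted and 14.2, 16.1 and 14.6 CPM in Cisplatin-treated depleted libraries. Untreated libraries of both kinds overlapped, and the 3 Cisplatin-treated depleted libraries lay above all others. Cisplatin raised CASP4 2.03-fold in depleted cells (log2 fold change 1.02, adjusted p = 8.82e-05) and 1.36-fold in control cells (0.45, adjusted p = 0.0241). The latter was lost in 3 of the 12 fits without a library (0.30 to 0.61, adjusted p up to 0.0945). Depletion raised it 1.60-fold in Cisplatin-treated cells (adjusted p = 0.00348) and by 0.10 on the log2 scale in untreated cells (adjusted p = 0.673). In the model with both terms the depletion effect was 0.39 (adjusted p = 0.027), and it did not pass in 6 of the 12 fits without a library (0.29 to 0.49). The interaction was 0.58 ± 0.21 (adjusted p = 0.139). Upon depletion, CASP2 was also higher without overlap in Cisplatin-treated cells (0.35), and CASP9 in untreated cells (0.33). Neither passed (adjusted p = 0.0547 and 0.341), although each did in alternatives given above. With library size as the only scaling, CASP2 also passed in the model with both terms (0.24, adjusted p = 0.0352).

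**Figure D2:**
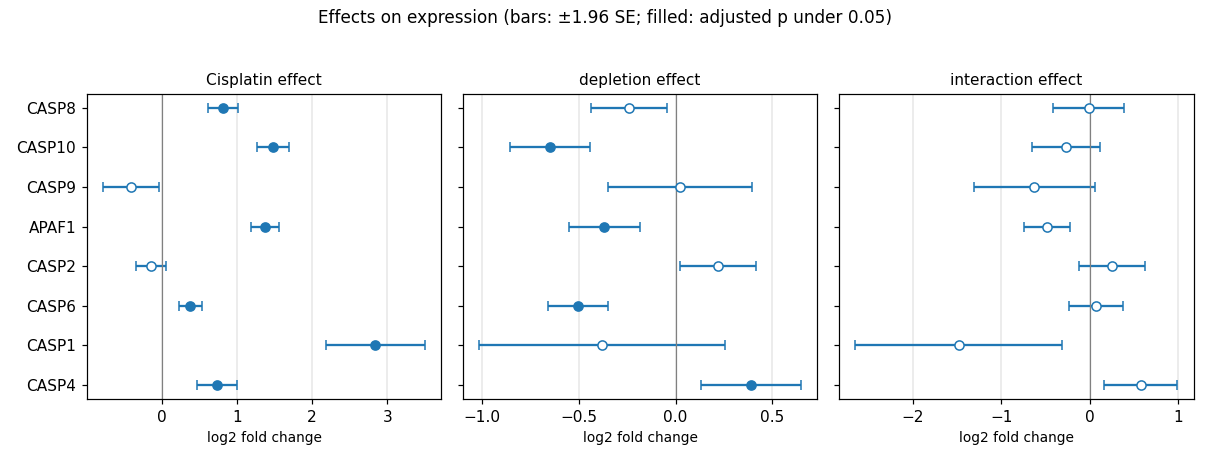
Log2 fold change of each gene (points, filled where the adjusted p was under 0.05; bars, 95% interval from the SE) for the Cisplatin effect, the depletion effect and the interaction. Cisplatin effects run from -0.41 for CASP9 to 2.84 for CASP1, and the interaction has no filled point. The bar of CASP9 upon Cisplatin (-0.78 to -0.04) leaves out 0, although its edgeR test had an unadjusted p of 0.0508.

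Within single conditions, Cisplatin raised 6 of the 8 genes in control cells, where 28% of all genes rose, 27% fell and 55% changed in all. It raised 6 of the 8 in depleted cells, where 32.4% of all genes rose and 60.2% changed, and CASP9 was the 1 member that fell, as did 27.8% of all genes. The rise was at least 2-fold for CASP10, APAF1 and CASP1 in control cells (9.16% of all genes), and for these and CASP4 in depleted cells (11.6%). Depletion lowered 2 genes in untreated cells, CASP10 and CASP6. Of all genes 27.4% changed, 14.6% downward and 12.8% upward. There were 4 changed members without the 2 control libraries numbered 2, of which CASP10, CASP6 and CASP8 (-0.35, adjusted p = 0.00125) were lower and CASP9 (0.40, adjusted p = 0.0193) was higher, where 41.8% of all genes changed. In Cisplatin-treated cells depletion lowered CASP10, APAF1 and CASP6 (21.8% of all genes) and raised CASP4 (21.1%), and 42.9% of all genes changed. Without the 2 control libraries numbered 2 there were 6, with CASP8 (-0.41, adjusted p = 0.000171) lower and CASP2 higher besides, where 55.6% of all genes changed. Libraries of the compared groups did not overlap for 6 and 7 genes upon Cisplatin in control and depleted cells, and for 3 and 6 genes upon depletion in untreated and Cisplatin-treated cells. The shares among all genes were 56.1%, 74.2%, 43.3% and 57.7%. These 4 comparisons share libraries in pairs. For the interaction, 0 of the 8 genes passed with edgeR, where 4.25% of all genes did. At an unadjusted p under 0.05 there were 3, namely APAF1, CASP1 and CASP4, and with DESeq2 the call was made for 1, APAF1. Without the 2 control libraries numbered 2, the interaction passed for 3 genes, which were APAF1, CASP2 (0.32, adjusted p = 0.0475) and CASP4 (0.51, adjusted p = 0.0489), where 17% of all genes passed.

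Splicing was measured as the inclusion level, the share of transcripts that carry a segment, from reads on the segment and across its junctions, scaled by the authors' effective lengths. The tables listed 69 events of the 8 genes for Cisplatin in control cells, 57 for Cisplatin in depleted cells, 49 for depletion in untreated and 78 for depletion in Cisplatin-treated cells, of which 61, 52, 46 and 72 had at least 10 reads in every library. Most were near-constant: 36, 30, 26 and 41 of them had a mean level over 95% in both groups. The numbers that passed were 0, 2, 1 and 1, and events of 1 gene can share an exon. For Cisplatin in control cells, where 0 passed with edgeR, 2 of the 61 had an unadjusted p under 0.05, and 0.315% of all skipped exons and 1.32% of all mutually exclusive exons passed. The order of libraries within a table cell is not named, so that they are called a, b and c, and whether the letters follow the replicate numbers is not stated.

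The 136-nt extension of CASP8 was included more often in depleted cells. Its inclusion was 8.46, 16.0 and 14.3% in control libraries a, b and c, and 22.6, 19.1 and 24.6% in depleted libraries. After Cisplatin it was 8.92, 9.02 and 16.0% in control and 28.1, 27.0 and 19.4% in depleted libraries. In each condition all depleted libraries lay above all control libraries. The difference was 13.5 points in Cisplatin-treated cells (log2 odds 1.39 ± 0.285, adjusted p = 0.000177), where 3.54% of all alternative 5′ splice site events passed, and it passed in each of the 6 fits without a library (11.9 to 16.2 points). In untreated cells it was 9.19 points and did not pass (unadjusted p = 0.00343, adjusted p = 0.284). Cisplatin moved it by -1.60 points in control cells (adjusted p = 0.857) and by 2.73 points in depleted cells (adjusted p = 0.693). The long form was supported by 77, 59 and 156 reads in Cisplatin-treated control and by 157, 128 and 82 reads in Cisplatin-treated depleted libraries. These include reads inside the segment, which unspliced RNA also gives, and the share of such reads was not tested. Over the whole gene, intronic reads of CASP8 were 17.99 and 22.7% of its exonic reads in the same 2 groups (adjusted p = 0.0667).

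Exon 18 of APAF1 was included more often after Cisplatin. Inclusion was 41.7, 53.7 and 54.6% in control and 62.9, 64.0 and 65.3% in Cisplatin-treated control libraries. In depleted libraries it was 32.8, 30.4 and 49.6%, and 65.5, 63.2 and 65.0% after Cisplatin. Treated and untreated libraries did not overlap in either kind of cell, and the 6 treated libraries lay within a few points of each other. The rise was 26.9 points in depleted cells (log2 odds 1.69 ± 0.47, adjusted p = 0.0204), and past the limit of 20 points. Of all skipped exon events 1.82% passed and 0.262% were also past that limit. It lost its call in 5 of the 6 fits without a library (23.3 to 32.9 points, adjusted p = 0.031 to 0.397), and the skipped form had 12 to 33 reads in each of these 6 libraries. In control cells the rise was 14.03 points (adjusted p = 0.712). Whether these rises differ was not tested. The same exon entered a mutually exclusive pair with exon 17, whose share of reads fell by 12.6 points upon Cisplatin in depleted cells (adjusted p = 0.0204; 2.43% of all such events passed), which is not an independent measurement. That call was lost in 3 of the 6 fits without a library (adjusted p = 0.0293 to 0.132). Taken as a single skipped exon, exon 17 had 0 to 2 skipping reads in each library, so the fall does not show that it was used less.

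The CASP2 intron that holds the 61-nt exon (chr7:142997388-143000876, +, 3489 nt) was retained at low levels that rose upon depletion. Retention was 0.8996, 1.16 and 1.67% in control and 2.00, 3.28 and 1.85% in depleted libraries, a difference of 1.14 points (adjusted p = 0.0322). Control and depleted libraries did not overlap. Of all retained intron events 17.4% passed in this comparison. The call was lost in 4 of 6 fits without a library. In Cisplatin-treated cells retention was 1.06, 1.04 and 2.27% against 3.37, 2.09 and 2.68%, with overlap, and the difference of 1.26 points did not pass (adjusted p = 0.0796).

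**Figure D3:**
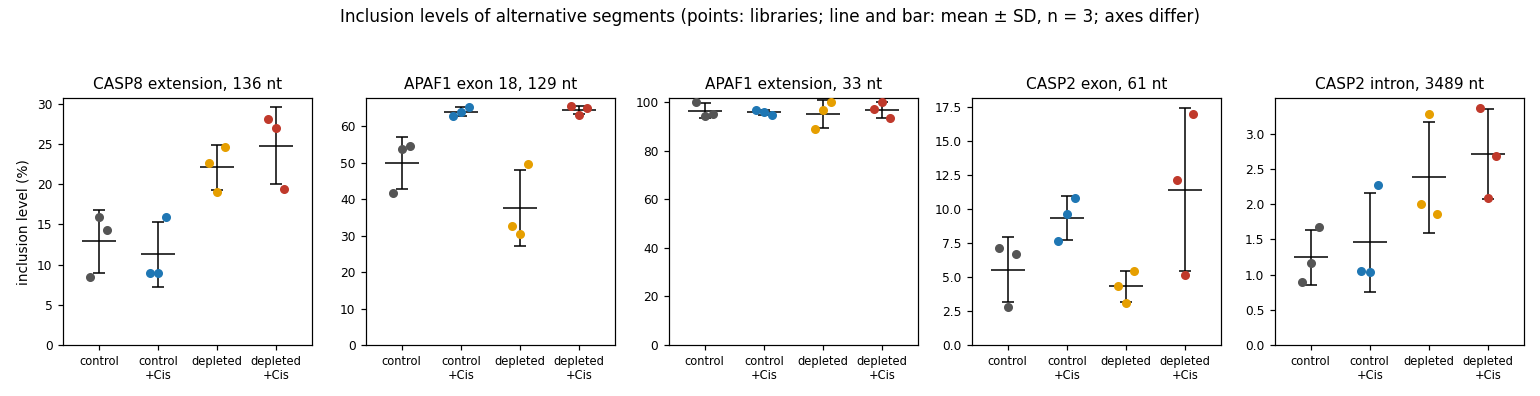
Inclusion level in percent of 5 segments, by group; points are libraries, lines and bars are means and SD (n = 3), and axes differ. The depleted libraries of the CASP8 extension lie between 19.1 and 28.1%, above the control libraries at 8.46 to 16.0%, and APAF1 exon 18 lies above 62% in all Cisplatin-treated libraries.

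Of the known isoform choices, the 61-nt exon of CASP2, the 33-nt segment of APAF1 and the examined exons of CASP9 did not pass in any comparison. The 61-nt exon of CASP2 was included at 7.18, 2.77 and 6.73% in control, 7.64, 9.65 and 10.8% in Cisplatin-treated control, 4.36, 3.12 and 5.46% in depleted and 12.1, 5.14 and 17.0% in Cisplatin-treated depleted libraries. The rise upon Cisplatin was 3.80 points in control (adjusted p = 0.712) and 7.12 points in depleted cells (adjusted p = 0.27), and it rested on 4 to 22 reads of the included form per library. The 33-nt segment of APAF1 had a mean inclusion of 96.4, 95.8, 95.1 and 96.8% in control, Cisplatin-treated control, depleted and Cisplatin-treated depleted cells. CASP9, whose short isoform skips the exons that encode part of the protease, had mean inclusion levels of 98.3 to 100% for the exons examined as single skipped exons, and a joint skip was not analysed here. CASP1 had 2 events or fewer in each comparison, all with under 10 reads in some library.

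Reads on introns, relative to reads on exons of the same gene, rose upon depletion in 6 of 7 members in Cisplatin-treated cells. The share among all genes was 85.2%. CASP1 had 3 intronic reads or fewer in each library and was left out, which leaves 7 genes. Intronic reads were 4.01, 5.98, 8.21 and 16.1% of exonic reads for CASP10 in control, Cisplatin-treated control, depleted and Cisplatin-treated depleted cells. In the same order they were 4.12, 7.54, 10.0 and 20.2% for CASP6, 5.59, 7.73, 8.06 and 19.2% for CASP9, and 4.99, 6.59, 13.6 and 14.9% for CASP4. They were 6.52, 12.5, 8.77 and 16.7% for APAF1, and 5.15, 5.33, 7.66 and 9.73% for CASP2. CASP8 differed from these, with 22.9, 17.99, 20.0 and 22.7%.

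In Cisplatin-treated cells, depletion raised the ratio in 6 of the 7 genes, all but CASP8. Of all 10804 genes tested, 85.4% changed and 85.2% rose. The log2 rises were 1.48 for CASP6 (adjusted p = 0.000166), 1.42 for CASP10 (4.88e-05), 1.25 for CASP9 (0.000596), 1.20 for CASP4 (0.000363), 0.88 for CASP2 (0.00126) and 0.44 for APAF1 (0.0339). The median rise over all genes was 0.97. Relative to that median, CASP6 was higher by 0.51 and CASP10 by 0.45, while CASP8 and APAF1 lay at -0.64 and -0.54, and 7.81% and 11.4% of all genes had a smaller rise. APAF1 did not pass without the 2 control libraries numbered 2 (0.26, adjusted p = 0.131), nor in 4 of the 12 fits without a library. When intronic reads were scaled by TMM, which sets the all-gene median near 0, 2 of the 7 passed, APAF1 (-0.57) and CASP8 (-0.66), both with a lower ratio. Of all genes 28.5% then passed, 15.8% with a lower ratio.

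In untreated cells the ratio rose upon depletion in 3 of the 7 genes, against 30.3% of all genes, and 30.4% changed in all. CASP4 rose by 1.45 (adjusted p = 0.00626), CASP6 by 1.30 (adjusted p = 0.0129) and CASP10 by 1.01 (adjusted p = 0.0468), where the median over all genes was 0.47. CASP4 rested on 11, 16 and 11 intronic reads in control and 33, 40 and 31 in depleted libraries, and its rise was larger than that of 99.2% of genes. CASP10 rested on 8 to 19 intronic reads per library, and its call was lost in 10 of the 12 fits without a library. Without the 2 control libraries numbered 2, CASP10 did not pass (0.94, adjusted p = 0.0592) and CASP2 did (0.56, adjusted p = 0.0262). With TMM scaling of intronic reads, CASP10 did not pass (0.54, adjusted p = 0.321). CASP8 then passed with a lower ratio (-0.68, adjusted p = 0.00717). Upon Cisplatin, the ratio rose in 1 of the 7 genes in control cells, APAF1 (0.92, adjusted p = 0.00211; 17.1% of all genes rose and 18.3% changed). It rose in 4 of the 7 in depleted cells, which were CASP9 (1.21), CASP6 (1.02), CASP10 (0.97) and APAF1 (0.93), where 67.6% of all genes changed and 66.9% rose, with a median of 0.75. With TMM scaling of intronic reads 0 of the 7 passed with a higher ratio and 3 with a lower one, CASP8 (-0.56), CASP2 (-0.41) and CASP4 (-0.61), where 23.2% of all genes were higher and 20.3% lower. Compared as 3 pairs, CASP6 also rose upon Cisplatin in control cells (0.82, adjusted p = 0.0205).

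**Figure D4:**
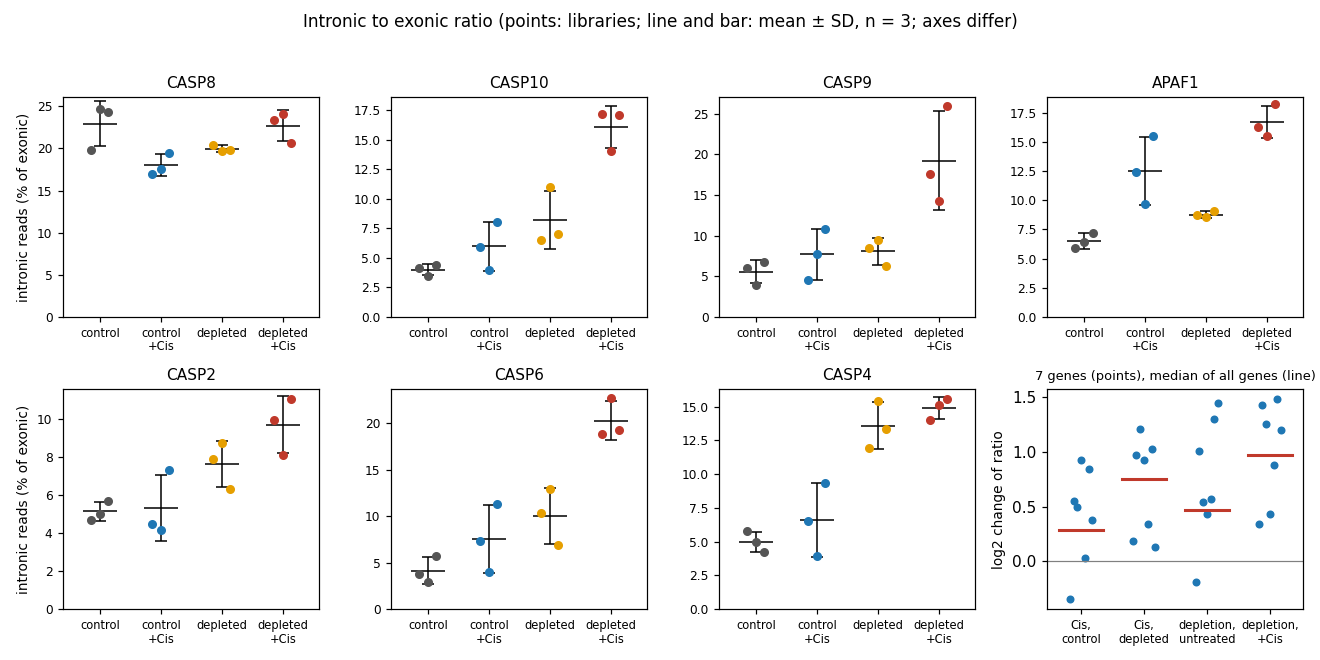
Intronic reads as a percentage of exonic reads of the same gene, by library and group, for 7 genes (points are libraries, lines and bars are means and SD, n = 3), with a last panel of the log2 change of the ratio of each gene beside the median of all genes (line). All genes but CASP8 have their highest library and highest mean in the Cisplatin-treated depleted group, with means from 9.73% for CASP2 to 20.2% for CASP6. The means of CASP8 stay between 17.99 and 22.9%.

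Other genes of the pathway, taken from lists of the apoptosome and its inhibitors, the death receptor and PIDDosome platforms, the inflammasome and caspase substrates, did not move in 1 direction. Of 10 tested genes of the apoptosome and its inhibitors, 4 rose and 2 fell upon Cisplatin, and 4 changed upon depletion, all of them lower, beside the 66.8% and 47.5% of all genes given above. BIRC3, which blocks CASP8 activation at receptors, rose by 1.78 ± 0.17 upon Cisplatin (adjusted p = 5.85e-07) and NAIP, a sensor related to these inhibitors, fell by 1.83 (adjusted p = 1.34e-05), although NAIP has near-identical partial copies that make its count uncertain. Of 6 platform genes, 3 rose and 1 fell upon Cisplatin, against 34.8% and 32.1% of all genes. The adaptors of the CASP2 platform went apart: PIDD1, its scaffold, rose by 2.22 ± 0.093 (adjusted p = 2.75e-10) and CRADD, which links it to CASP2, fell by 2.36 (adjusted p = 5.82e-10). Of 13 inflammasome genes 5 were expressed enough to be tested, of which 2 rose and 1 fell upon Cisplatin, beside the same shares of all genes. NLRP1, a sensor upstream of CASP1, rose by 4.43 ± 0.31 (adjusted p = 3.08e-08), from 4 to 8 reads in control libraries to 87 to 261 reads after Cisplatin.

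Among 10 tested substrates, 3 rose and 3 fell upon Cisplatin, and 2 rose and 2 fell upon depletion, where 66.8% and 47.5% of all genes changed. LMNB1, which encodes lamin B1, fell by 1.72 upon Cisplatin (adjusted p = 1.63e-08). GSDME, whose product forms pores when cut by a caspase, fell by 1.60 upon depletion (adjusted p = 6.15e-07). PYCARD, the adaptor of CASP1, fell by 1.07 upon depletion (adjusted p = 0.0187) on 4 to 42 reads per library, and not past the threshold without the 2 control libraries numbered 2 (-0.64, adjusted p = 0.0831). The inflammatory CASP5 and the epidermal CASP14 had 0 reads in all libraries.

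The gene whose log2 CPM followed each member most closely over the 12 libraries, among about 9778 genes whose mean reached 10 CPM, was RALGAPB for APAF1 (Pearson r 0.996), STX6 for CASP10 (0.993), MSANTD4 for CASP6 (0.990), CCDC43 for CASP1 (0.988), PIK3CD for CASP8 (0.986), TBKBP1 for CASP4 (0.970), INCENP for CASP2 (0.959) and CNOT10 for CASP9 (0.934). These values describe libraries that share the same 4 conditions.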

How the data were processed

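RNA of 12 A549 libraries was analysed from files that the authors deposited. They prepared stranded mRNA libraries (paired reads of 76 nt, 2 runs), removed ribosomal, transfer and mitochondrial reads, trimmed to 73 nt and aligned to hg19 with STAR 2.5.2b (processing notes of the submitters). The deposited gene counts are raw read pairs per gene and strand, without normalization. The deposited rMATS tables give raw inclusion and skipping reads per library. Their p-value, FDR and inclusion difference columns hold the authors' own comparisons and were not used. The deposited HTSeq counts of exons and whole genes cover protein-coding Gencode v19 genes, and intronic reads were taken as the difference.

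Samples were grouped by their labels. Tests of expression used R 4.3.3 and edgeR 4.0.16 (TMM scaling, filterByExpr, quasi-likelihood test, Benjamini-Hochberg adjustment over 15352 genes), with drug and depletion as terms, or with 1 mean per group for the interaction and the effects within conditions. Inclusion against skipping reads (at least 10 in every library), and intronic against exonic reads (at least 1 and 10), went through the same test in models with library terms. A gene or event passed at an adjusted p under 0.05. Fold limits (2-fold, 20 points) follow the study. CPM use TMM-scaled library sizes, and CPM per kb the union of Gencode v19 exons. Exon numbers and reading frames come from Gencode v44 lifted to GRCh37. Scripts were tested on simulated data. The libraries held 33859097 to 56071514 read pairs, of which rows that name no gene took 14 to 22.6% and were left out. Intervals of log2 effects come from the SE by a normal approximation. They are narrower than the quasi-likelihood test implies, and can leave out 0 where its unadjusted p was above 0.05.

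The named genes are the 8 members, RNF113A, pathway genes that passed at 2-fold for the Cisplatin or depletion effect or passed for the interaction, the most similar gene of each member, events that passed and the known isoform events. CASP5, CASP14 and CARD16 were named after their counts were seen. Some genes of that rule are not reported here. Members and lists were chosen with earlier results of these data known. Deviations of equally numbered libraries from their group means correlated with r = 0.63, 0.73 and 0.48 when control cells with and without Cisplatin were compared. The replicate block was therefore also fitted there, and this pairing comes from these values alone. Libraries 1 and 3 correlated across numbers too (r = 0.59 and 0.54). The values thus set number 2 apart and do not show that 1 pairs with 1 and 3 with 3. Alternatives were other scalings and filters, DESeq2 1.42.0, unstranded counts, a replicate block and each library left out.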

Additional observations from a re-analysis of the deposited data

How the results depend on the processing

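The number of the 8 genes that passed for the interaction was 0, and 1 with DESeq2 and 3 when both control libraries numbered 2 were left out, a step chosen after the data were seen. Depletion in untreated cells changed 2 genes, and 4 without those 2 libraries. In the model with both terms depletion changed 4 genes. It changed 5 with DESeq2, DESeq2 size factors, library size only or the replicate block, where 35.5 to 48.2% of all genes changed. The intronic ratio passed in 1 gene for Cisplatin in control cells, and in 2 with TMM scaling of intronic reads (1 higher, 1 lower), without those 2 libraries, or with the replicate block in the 6 control libraries. It passed in 6 genes for depletion in Cisplatin-treated cells, and in 2 with TMM scaling. For Cisplatin in depleted cells it passed in 4 genes, all higher, and with TMM scaling in 3 others, all lower. For depletion in untreated cells it passed in 3 genes, all higher, and with TMM scaling in 3, of which 2 were higher and 1 lower. With a limit of 10 points in place of 20, the call covered 2 events for Cisplatin in depleted cells and 1 for depletion in Cisplatin-treated cells. The share of all events past 10 points was not counted, so these numbers have no background to be read against. Without single libraries the counts ranged from 6 to 7 (Cisplatin), 3 to 5 (depletion), 0 to 1 (interaction), 4 to 7 and 6 to 7 (Cisplatin in control and depleted cells), 1 to 2 and 4 to 6 (depletion in untreated and Cisplatin-treated cells). For the intronic ratio the ranges were 1 to 3, 4 to 4, 1 to 5 and 5 to 7 in the same order of 4 comparisons, and for called events 0 to 0, 0 to 1, 0 to 0 and 0 to 0.

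Directions turned for these effects. CASP9 upon depletion was -0.00059 with DESeq2 size factors and -0.0047 with DESeq2. With library size only, CASP9 upon Cisplatin in control cells was 0.0074 and CASP2 in depleted cells 0.076. Without both control libraries numbered 2, CASP6 had an interaction of -0.022, CASP2 an effect of depletion in untreated cells of -0.067, CASP9 of depletion in Cisplatin-treated cells of 0.15, and NAIP of depletion of 0.12. With TMM scaling of intronic reads, the ratio of CASP2 was -0.21 for Cisplatin in control cells, those of CASP8, CASP2 and CASP4 were -0.56, -0.41 and -0.61 for Cisplatin in depleted cells, that of APAF1 was -0.055 for depletion in untreated cells, and those of CASP8, APAF1 and CASP2 were -0.66, -0.57 and -0.11 for depletion in Cisplatin-treated cells. That scaling sets the all-gene median near 0.

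Without single libraries, effects turned for CASP9, NAIP and NLRP1 upon depletion (-0.065 to 0.23, -0.22 to 0.013 and -0.34 to 0.089), for the interactions of CASP8 and CASP6 (-0.22 to 0.10 and -0.062 to 0.13), for CASP9 and CASP2 upon Cisplatin in control and depleted cells (-0.54 to 0.11 and -0.060 to 0.0045), and for CASP2 and CASP4 upon depletion in untreated cells (-0.067 to 0.22 and -0.050 to 0.26). The same held for CASP9 upon depletion in Cisplatin-treated cells (-0.55 to 0.11), for the CASP2 intronic ratio (-0.25 to 0.19) and for its retained intron (-0.19 to 0.43 points), both upon Cisplatin in control cells.

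With the replicate block over all 12 libraries, CASP9 fell upon Cisplatin (-0.44, adjusted p = 0.0384), CASP8 fell upon depletion (-0.22, adjusted p = 0.0444), and CASP2 and CASP1 changed upon depletion in Cisplatin-treated cells (0.36 and -0.80). Numbers do not pair depleted with control libraries (r of -0.20 to 0.14). No paired analysis was possible for the splicing events because their libraries carry no replicate names.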
